A study of Mus musculus with 12 samples.

Results

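The 45 genes described here encode soluble enzymes of the lysosome, proteins of its membrane and a few proteins that regulate it. They were picked by symbol from the gene count table of a study of E4FAD mouse cortex. The rule itself uses no measured value, but the genes and all comparison lists were chosen with earlier results of these data known. They comprised 11 proteases, 11 glycosidases, 5 sulfatases, 9 lipid-handling proteins, 6 membrane proteins, and a last group of 3 with progranulin (Grn), the transcription factor Tfeb and acid phosphatase Acp2. The table held 50563 genes, of which 15688 passed the filter on low counts and were tested. All 45 lysosomal genes had a count in every library and all 45 were tested.

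RNA-Seq was performed on brain cortex of 12 E4FAD mice, 1 library per mouse. Every mouse had the genotype APOE4+/+, 5FAD-/+, that is, both copies of Apoe replaced by human APOE4 and 1 copy of the 5xFAD transgenes, which are expressed in neurons from the Thy1 promoter and lead to amyloid plaques. The CTRL group had 7 mice given the vehicle with antioxidants by oral gavage, 2 of them 12 months and 5 of them 14 months old. The DPAn-6 group had 5 mice, 2 of 12 months and 3 of 14 months, that received docosapentaenoic acid n-6, an omega-6 polyunsaturated fatty acid, by daily oral gavage for 3 weeks. Both groups included both sexes, without the sex of each mouse being stated. All mice analysed here carried the 5xFAD transgenes, so the comparison is between DPAn-6-treated and vehicle-treated mice of 1 disease genotype. It asked whether mRNA of the lysosomal genes differed with DPAn-6.

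Lysosomes are acidic compartments in which proteins, glycans and lipids delivered by endocytosis, phagocytosis and autophagy are broken down. Most of their soluble enzymes are tagged with mannose phosphate in the Golgi and carried to the lysosome by receptors, while a proton pump, the V-ATPase, keeps the lumen acidic. In brain, microglia, the resident macrophages, are rich in lysosomal enzymes, and inherited loss of many of these enzymes causes storage disorders of the nervous system.

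Many lysosomal genes carry a short palindromic element in their promoters that the transcription factor TFEB and its relatives bind. Promoters of 39 of the 45 genes were found in a RefSeq table on GRCm38.p6 that gives, for each start of transcription, 250 bases before and 50 bases after it. The sequence TCACGTGA, which is the same on both strands, was present in a promoter of 5 of these 39 genes (12.821%), compared with 1.125% of 27025 genes in the table. The shorter core CACGTG, also the same on both strands and contained in the first, was present in 14 of 39 (35.897%), compared with 8.093% of all genes. Stretches of 60 bases from the 5 genes with the longer element are printed on the strand of the gene, to show the element in its surroundings, with the capitals marking TCACGTGA. They lie at chr7:142387893-142387952 (minus strand) for Ctsd, chr2:164833713-164833772 (plus) for Ctsa, chr7:126583325-126583384 (minus) for Cln3, chrX:134601196-134601255 (minus) for Gla and chr8:3500447-3500506 (plus) for Mcoln1. Relative to the start, the element spanned bases -99 to -92 in Ctsd, -13 to -6 in Ctsa, -122 to -115 in Cln3, -228 to -221 in Gla and -46 to -39 in Mcoln1. Gla and Ctsa each held a further copy. In Gla it spanned bases -195 to -188, so the printed stretch ends within it and leaves it unmarked. In Ctsa it lay past the start and outside the printed stretch, with its core CACGTG at bases 5 to 10.
Ctsd: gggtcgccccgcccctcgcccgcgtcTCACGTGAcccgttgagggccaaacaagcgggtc
Ctsa: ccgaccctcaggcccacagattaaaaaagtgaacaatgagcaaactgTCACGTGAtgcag
Cln3: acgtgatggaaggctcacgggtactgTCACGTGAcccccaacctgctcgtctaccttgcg
Gla: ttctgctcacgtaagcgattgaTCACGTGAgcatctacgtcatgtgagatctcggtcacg
Mcoln1: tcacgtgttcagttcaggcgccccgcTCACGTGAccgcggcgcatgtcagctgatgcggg

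These 5 genes did not share a direction in the cortex. Ctsd and Ctsa had log2 fold changes (DPAn-6 minus CTRL) of -0.43 and -0.22, whereas Cln3, Gla and Mcoln1 lay at 0.037, 0.14 and -0.035. Of the 14 genes with CACGTG, 10 were lower in DPAn-6 and the median log2 fold change was -0.14. Of the 25 genes whose promoters lacked these letters, 18 were lower and the median was -0.15.

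The libraries held between 15339098 and 19500154 counts on genes in CTRL mice and between 15208803 and 26520251 in DPAn-6 mice. The lowest count of any of the 45 genes in a library was 85 (Tfeb). The library of CTRL replicate 3 stood apart. Its log2 CPM (counts scaled to the library total, with 0.5 added to each count) deviated from the other CTRL mice by a median of -0.31 over genes with an exon length of up to 2679 bases and of 0.15 over genes longer than 6689 bases, whereas these medians lay between -0.062 and 0.10 in the other libraries. Among the lysosomal genes it was the extreme CTRL library for Ids, Lamp2, Arsb and Tpp1, where it was high, and for Psap, Smpd1, Gaa, Naglu and Ctsf, where it was low. The main results are therefore also given without it.

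Most lysosomal genes had a lower mean mRNA level in DPAn-6 mice, and the proteases did so most uniformly. Of the 45 genes, 34 had a negative log2 fold change, where 51.3% of all tested genes did. The median over the 45 genes was -0.14, and over all tested genes -0.0047. In the edgeR quasi-likelihood test, 2 genes, Ctsh and Man2b1, passed an adjusted p of 0.05, both lower in DPAn-6, and by this rule 1.55% of all tested genes were called, 1.14% lower and 0.408% higher. At an unadjusted p of 0.05, 16 genes were lower (35.6%) and 0 were higher, against a background of 9.02% lower and 5.51% higher. In bulk cortex, fewer cells that express a gene and less RNA per cell cannot be told apart.

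**Figure D1:**
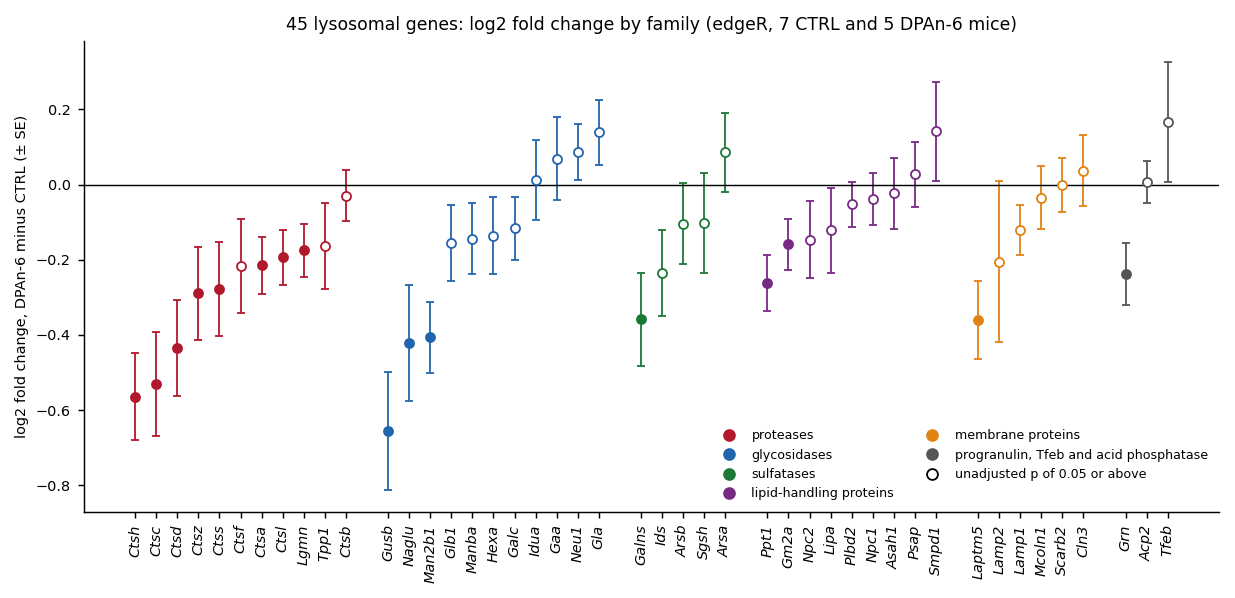
Log2 fold change of each of the 45 lysosomal genes (y axis, DPAn-6 minus CTRL, edgeR, bars ± SE) by family (x axis), with filled points for an unadjusted p below 0.05. All 11 proteases lie below 0, from -0.56 (Ctsh) to -0.029 (Ctsb), while the other families spread to both sides.

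Without CTRL replicate 3, 9 of the 45 genes passed the adjusted threshold, all lower in DPAn-6: Ctsh, Ctsc, Ctsd, Ctsf, Gusb, Man2b1, Naglu, Ppt1 and Laptm5. The background rose too, to 3.98% of genes called lower and 2.12% higher. At an unadjusted p of 0.05, 20 genes were then lower and 0 higher, with a background of 12.5% lower, and the median was -0.12. The negative direction of the gene group thus did not rest on that library, while the number called did.

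Age divided the mice as well. In the 12-month mice alone (2 CTRL and 2 DPAn-6), 40 of 45 genes were lower, 15 passed the adjusted threshold with a background of 2.77% called lower, and the median was -0.21. In the 14-month mice alone (5 CTRL and 3 DPAn-6), 31 were lower, 0 passed the adjusted threshold (background 0.0376%), and 3 (Ctsh, Gusb and Ppt1) were lower at an unadjusted p of 0.05, with a background of 5.36%. The median there was -0.053. Of the 12-month mice, CTRL replicate 1 had the highest summed level of the 45 genes in any library (8062 CPM), and CTRL replicate 7 had 7508 CPM. DPAn-6 replicates 3 and 4, also of 12 months, had the lowest, 6553 and 6704 CPM. The 20 microglial markers described below had a median log2 fold change of -0.85 at 12 months and -0.30 at 14 months. A test of the difference between the ages in edgeR gave an unadjusted p below 0.05 for 11 of the 45 genes, each with the more negative value at 12 months, where 2.47% of all genes did so. The smallest of these, Ctsz, had an unadjusted p of 0.00270 and an adjusted p of 0.865, and 0 of the 45 genes passed after adjustment.

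**Figure D2:**
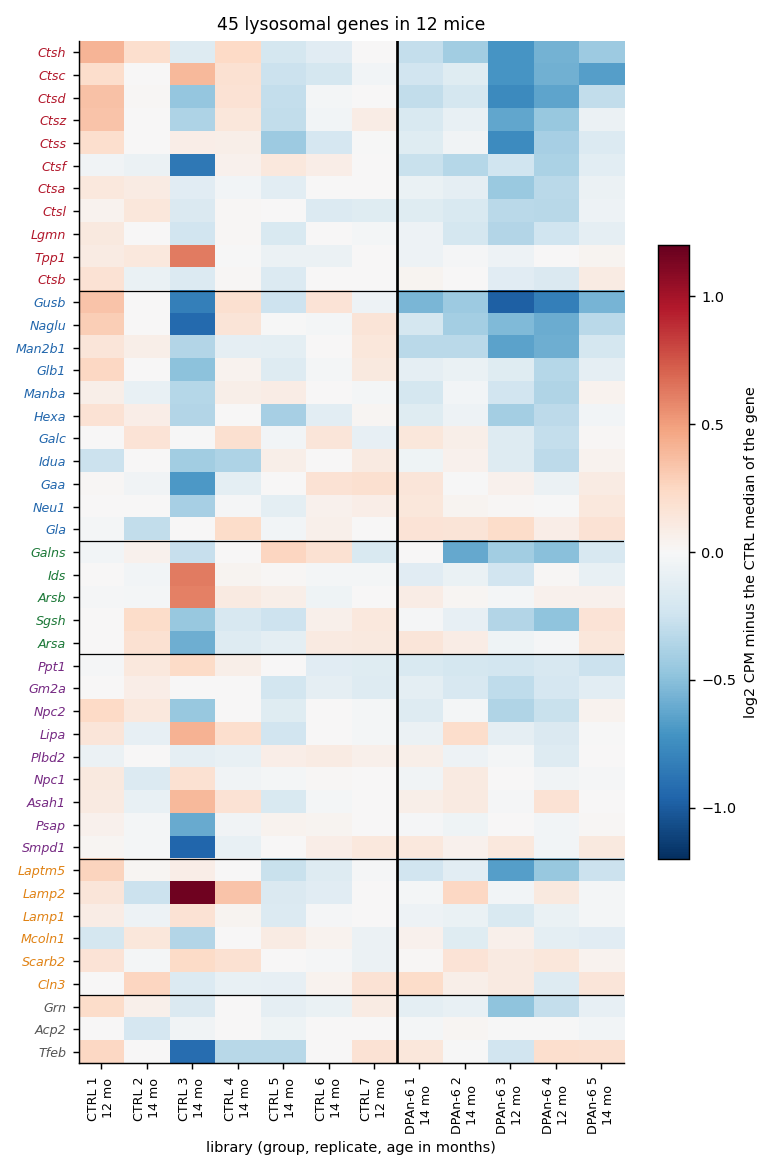
Log2 CPM of the 45 lysosomal genes (rows, grouped by family) in 12 libraries (columns, with the age of each mouse), as the difference from the CTRL median of the gene, blue for lower and red for higher. The proteases are blue in most DPAn-6 libraries and deepest in replicates 3 and 4, both of 12 months, and CTRL replicate 3 differs from the other CTRL libraries in genes of every family.

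Proteases digest the proteins that reach the lysosome, and most of them are cathepsins. All 11 had a negative fold change, 8 at an unadjusted p below 0.05 (72.7%, background 9.02% lower), with a median of -0.22. Cathepsin H (Ctsh, ENSMUSG00000032359, chr9:90054152-90076089), a cysteine protease that also trims amino acids from the N-terminus, ranged in CTRL mice from 4.58 to 5.20 log2 CPM with a median of 4.79. In DPAn-6 mice it was 4.51, 4.37, 4.08, 4.22 and 4.36. Every DPAn-6 mouse lay below every CTRL mouse, which held for 2 of the 45 lysosomal genes and for 1.49% of all genes. Its mRNA fell by 0.56 ± 0.12 (SE) on the log2 scale, a change of -32.4%, at an adjusted p of 0.0265 in edgeR. The two-sided exact permutation test of the log2 CPM values gave an unadjusted p of 0.00379. Permutation p of the other group differences below are unadjusted too. The smallest p this permutation test allows is 0.00126. With 1 library left out at a time, the adjusted p of Ctsh was lowest, at 0.00523, without CTRL replicate 3 and highest, at 0.102, when DPAn-6 replicate 3 was dropped. It also exceeded 0.05 when CTRL replicate 2 (0.0518) or 4 (0.0567), or DPAn-6 replicate 2 (0.0597), 4 (0.0893) or 5 (0.0683), was left out.

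Cathepsin D (Ctsd, ENSMUSG00000007891, chr7:142375911-142388038), the main aspartic protease of lysosomes, was the most abundant protease per length of transcript, at 251 ± 45.8 CPM per kb of exon in CTRL (SD, n = 7) and 188 ± 30.7 in DPAn-6 (SD, n = 5). Its CTRL values ran from 8.75 to 9.56 log2 CPM with a median of 9.21. The DPAn-6 values were 8.92, 9.01, 8.45, 8.58 and 8.92. The groups overlapped through the lowest CTRL libraries, replicates 3 and 5. DPAn-6 mice differed by -0.43 ± 0.13 on the log2 scale (exact permutation p = 0.0265). In edgeR the adjusted p of Ctsd was 0.111, or 0.0144 without CTRL replicate 3. Of the exon bases of Ctsd 34.4% are shared with Gm49369 on the same strand, whose mean count was 0.0 beside 9602 for Ctsd. How reads of these bases were counted is not stated.

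Cathepsin C (Ctsc), a dipeptidyl peptidase that activates granule proteases, differed by -0.53 ± 0.14 on the log2 scale with an adjusted edgeR p of 0.0727, and 3 of 5 DPAn-6 mice lay below all CTRL mice. Cathepsin Z (Ctsz), a carboxypeptidase, and cathepsin S (Ctss), which processes the invariant chain in antigen-presenting cells, had log2 fold changes of -0.29 and -0.28. Cathepsin A (Ctsa), which protects β-galactosidase and sialidase from breakdown, cathepsin L (Ctsl) and legumain (Lgmn), an asparaginyl endopeptidase, lay at -0.22, -0.19 and -0.17. These 5 had unadjusted p between 0.0134 (Ctsa) and 0.0432 (Ctss) and none passed after adjustment. Of the exon bases of Ctsa 10.5% lie opposite an exon of Pltp, whose mean count was 1626 beside 2707 for Ctsa. Reads of such stretches cannot be told apart where the counting ignores strand. Cathepsin F (Ctsf) and tripeptidyl peptidase (Tpp1) lay at -0.22 and -0.16, and in both CTRL replicate 3 was far from the other CTRL mice. Without it Ctsf was at -0.31 with an adjusted edgeR p of 0.00486, and Tpp1 at -0.048. Cathepsin B (Ctsb), at 136 ± 11.2 CPM per kb in CTRL and 135 ± 10.9 in DPAn-6, had a log2 fold change of -0.029 ± 0.068, within its error, and 12.8% of its exon bases lie opposite Fdft1 (mean counts 15044 and 1399). Fold changes of the proteases thus ran from -0.56 for Ctsh to near 0 for the abundant Ctsb.

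**Figure D3:**
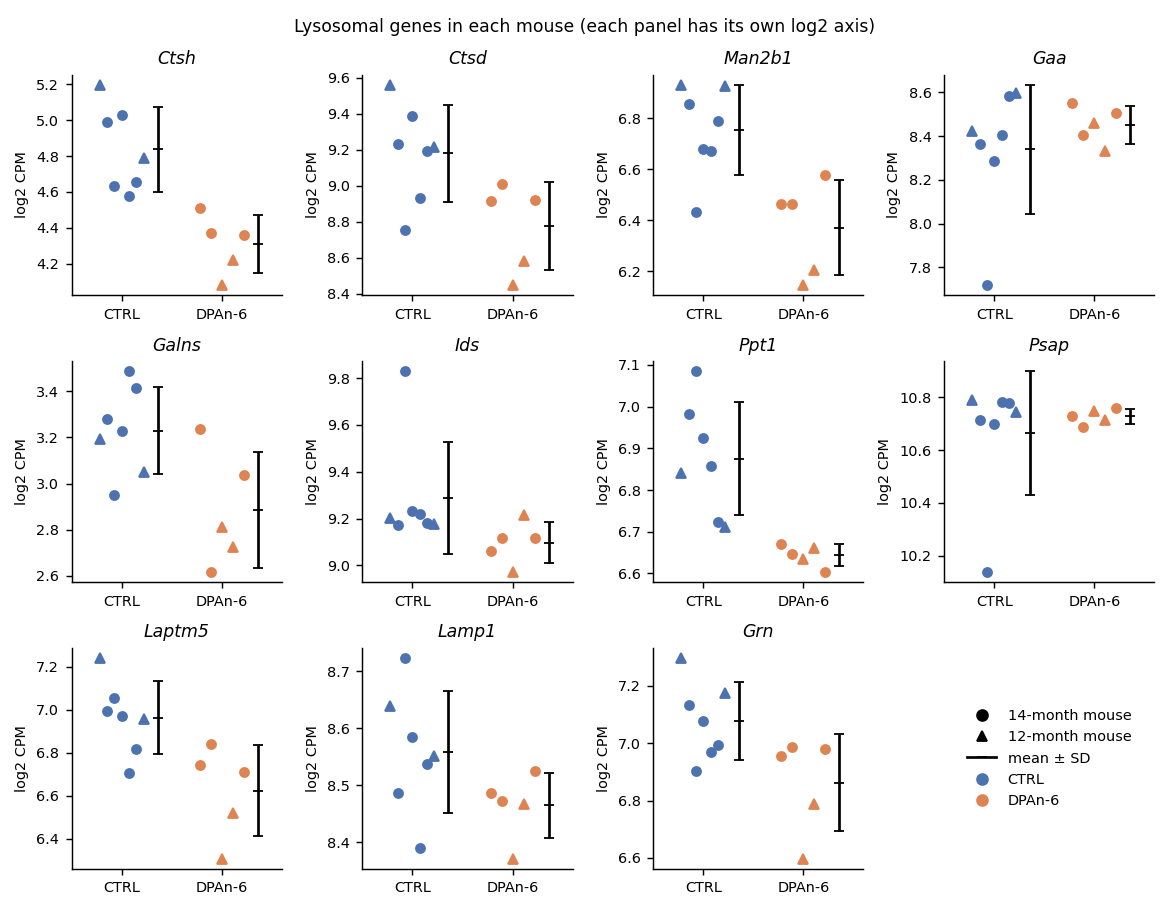
Log2 CPM in each mouse (y axis, scaled separately in every panel) of 11 lysosomal genes in CTRL (7 mice, blue) and DPAn-6 (5 mice, orange), with circles for 14-month and triangles for 12-month mice and bars for mean ± SD. Ctsh and Ppt1 do not overlap between the groups, while the abundant genes Psap and Gaa do, with CTRL replicate 3 far below the rest.

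Glycosidases remove sugars from glycoproteins, glycolipids and glycosaminoglycans. Of 11, 7 had a negative fold change and 3 of these, Man2b1, Gusb and Naglu, had an unadjusted p below 0.05 (27.3%, background 9.02% lower). The family median was -0.14. Lysosomal alpha-mannosidase (Man2b1, ENSMUSG00000005142, chr8:85083270-85098282), which trims mannose from glycoprotein glycans, ranged in CTRL from 6.43 to 6.93 log2 CPM with a median of 6.79. In DPAn-6 it was 6.46, 6.46, 6.15, 6.20 and 6.58. Only CTRL replicate 3, the lowest CTRL library, came down into the range of the DPAn-6 mice. Man2b1 fell by 0.41 ± 0.094 (SE) on the log2 scale, a change of -24.6%, with an adjusted edgeR p of 0.0462. The exact permutation test gave p = 0.00758. Leaving out any 1 library other than CTRL replicate 3 raised its adjusted p above 0.05, to between 0.0582 (without DPAn-6 replicate 5) and 0.162 (without DPAn-6 replicate 3), while without CTRL replicate 3 it was 0.00388.

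β-Glucuronidase (Gusb), which cleaves glucuronic acid from glycosaminoglycans, had the most negative fold change of the 45 genes, -0.66 ± 0.16 on the log2 scale, with an adjusted edgeR p of 0.0530. CTRL replicate 3, at 4.62 log2 CPM, lay within the DPAn-6 range of 4.46 to 5.00, and the other CTRL mice lay between 5.20 and 5.78. Without that library the adjusted p of Gusb was 0.00100. Naglu, which removes N-acetylglucosamine from heparan sulfate, had a log2 fold change of -0.42 ± 0.15 with an adjusted edgeR p of 0.205, and of -0.52 with an adjusted p of 0.00251 without CTRL replicate 3. Acid alpha-glucosidase (Gaa, ENSMUSG00000025579, chr11:119267887-119285454), which degrades glycogen, was the most abundant glycosidase per length, at 68.9 ± 12.3 CPM per kb in CTRL and 73.3 ± 4.35 in DPAn-6. Its CTRL values ran from 7.72 to 8.60 log2 CPM around a median of 8.41, and the DPAn-6 values were 8.55, 8.40, 8.46, 8.33 and 8.51. The difference in Gaa was 0.069 ± 0.11 on the log2 scale, and -0.010 without CTRL replicate 3. With an exact permutation p of 0.564, it was within the spread between mice.

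None of the other 7 glycosidases had an unadjusted p below 0.05. β-Galactosidase (Glb1), the beta-hexosaminidase alpha subunit (Hexa), beta-mannosidase (Manba) and galactosylceramidase (Galc) had log2 fold changes between -0.16 and -0.12. Iduronidase (Idua), sialidase (Neu1) and alpha-galactosidase A (Gla) lay at 0.012, 0.087 and 0.14. Of Idua's exon bases 2.9% lie opposite an exon of Dgkq, which had the higher mean count (796 beside 328). All 5 DPAn-6 mice lay above the CTRL mean of Gla. Its edgeR p was 0.129 before and 0.507 after adjustment, and its exact permutation p, not adjusted, was 0.0253.

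Sulfatases take sulfate groups from glycosaminoglycans and sulfatide. Of 5, 4 were lower with a median of -0.10, and 1, Galns, had an unadjusted p below 0.05 (20%, background 9.02% lower). Galns (ENSMUSG00000015027, chr8:122578242-122611463), which acts on keratan sulfate, ranged from 2.95 to 3.49 log2 CPM in CTRL with a median of 3.23. In DPAn-6 it was 3.24, 2.62, 2.81, 2.72 and 3.04, so that 3 of 5 mice lay below every CTRL mouse and 2 did not. Galns differed by -0.36 ± 0.12 on the log2 scale (adjusted edgeR p = 0.178, exact permutation p = 0.0253).

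Iduronate sulfatase (Ids, ENSMUSG00000035847, chrX:70343069-70365084) was the most abundant sulfatase per length, at 124 ± 24 CPM per kb in CTRL and 107 ± 6.56 in DPAn-6. Its CTRL median was 9.20 log2 CPM, with a lowest value of 9.17 and a highest of 9.83, the last in CTRL replicate 3. The DPAn-6 values were 9.06, 9.12, 8.97, 9.21 and 9.12, and 4 of 5 were below every CTRL mouse. The log2 fold change of -0.23 ± 0.12 became -0.11 without CTRL replicate 3, with adjusted edgeR p of 0.368 and 0.157. Arylsulfatase B (Arsb) and heparan N-sulfatase (Sgsh) both had a log2 fold change of -0.10, and arylsulfatase A (Arsa), which degrades sulfatide, had 0.086.

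Of the 9 lipid-handling proteins, 7 were lower with a median of -0.053, and Ppt1 and Gm2a had an unadjusted p below 0.05 (22.2%, background 9.02% lower). Palmitoyl-protein thioesterase (Ppt1, ENSMUSG00000028657, chr4:122836242-122859175), which removes fatty acids from proteins, ranged from 6.71 to 7.08 log2 CPM in CTRL with a median of 6.86. In DPAn-6 it was 6.67, 6.65, 6.63, 6.66 and 6.60. All DPAn-6 mice lay below all CTRL mice and within a span of less than 0.1. The difference was -0.26 ± 0.076 on the log2 scale, or -16.6%, with an adjusted edgeR p of 0.101 and p = 0.00379 in the exact permutation test. Ppt1 shares 129 bases, 3.5% of its exons, with the more abundant Cap1 on the opposite strand, and without a stated strand for the counts, reads from this stretch cannot be told apart.

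Prosaposin (Psap, ENSMUSG00000004207, chr10:60277627-60302597), the precursor of the saposins that present glycolipids to their enzymes, was the most abundant of the 45 genes per length, at 597 ± 83.5 CPM per kb in CTRL and 618 ± 12.4 in DPAn-6. Its CTRL values ran from 10.14 (replicate 3) to 10.79 log2 CPM with a median of 10.74. The DPAn-6 values were 10.73, 10.69, 10.75, 10.71 and 10.76. With all libraries Psap differed by 0.028 ± 0.086 on the log2 scale and without CTRL replicate 3 by -0.040 ± 0.036. Neither passed the edgeR test, with adjusted p of 0.926 and 0.539. The GM2 activator (Gm2a), which lifts ganglioside from membranes for hexosaminidase, had a log2 fold change of -0.16 ± 0.069 with an adjusted edgeR p of 0.301. Npc2 and Npc1, which together export cholesterol from lysosomes, lay at -0.15 and -0.039. Acid lipase (Lipa), the phospholipase B-like Plbd2 and acid ceramidase (Asah1) lay at -0.12, -0.053 and -0.023, and acid sphingomyelinase (Smpd1) at 0.14, or 0.042 without CTRL replicate 3.

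Of the 6 membrane proteins, 4 were lower and 1, Laptm5, had an unadjusted p below 0.05 (16.7%, background 9.02% lower). Laptm5 (ENSMUSG00000028581, chr4:130913125-130936141), a lysosomal membrane protein of blood and immune cells, ranged from 6.71 to 7.24 log2 CPM in CTRL with a median of 6.97. In DPAn-6 it was 6.74, 6.84, 6.31, 6.52 and 6.71, lowest in the 12-month replicates 3 and 4. Laptm5 differed by -0.36 ± 0.10 on the log2 scale, or -22.1%, with p = 0.0114 in the exact permutation test. Its adjusted edgeR p was 0.100, and 0.0480 without CTRL replicate 3. Lamp1 (ENSMUSG00000031447, chr8:13159161-13175338), a structural glycoprotein of the lysosomal membrane in nearly all cells, was the most abundant membrane protein of the group, at 141 ± 10.4 CPM per kb in CTRL and 132 ± 5.15 in DPAn-6. It ran from 8.39 to 8.72 log2 CPM in CTRL with a median of 8.55. The DPAn-6 values of Lamp1 were 8.49, 8.47, 8.37, 8.47 and 8.53, all but 1 inside the CTRL range. This difference was -0.12 ± 0.067 on the log2 scale with an adjusted edgeR p of 0.439. Lamp2, its close relative, was at -0.20 with all libraries and at 0.044 without CTRL replicate 3, in which it reached 7.43 log2 CPM. The calcium channel Mcoln1, the enzyme receptor Scarb2 and Cln3, which is mutated in juvenile Batten disease, had log2 fold changes of -0.035, 0.00020 and 0.037.

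In the last group, Grn (ENSMUSG00000034708, chr11:102430315-102437048), whose product progranulin is needed for normal lysosomal function and is made abundantly by microglia, ranged from 6.90 to 7.30 log2 CPM in CTRL with a median of 7.08. In DPAn-6 it was 6.95, 6.99, 6.60, 6.79 and 6.98. The 12-month replicates 3 and 4 lay below every CTRL mouse, and the 14-month DPAn-6 mice did not. Grn differed by -0.24 ± 0.083 on the log2 scale (adjusted edgeR p = 0.183, exact permutation p = 0.0290). Tfeb, which switches on lysosomal genes, had a log2 fold change of 0.17 ± 0.16, and Acp2 of 0.0076 ± 0.056, both well within the spread between mice.

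Of 82 further lysosomal genes, 79 were tested. None of the 79 passed the adjusted threshold in edgeR, with 6 lower (7.59%) and 8 higher (10.1%) at an unadjusted p of 0.05, beside 9.02% and 5.51% of all tested genes. With DESeq2 3 were called, where 3.16% of all tested genes were called lower. Without CTRL replicate 3, 4 were called, all lower, beside the background of 3.98%, among them the hydrolase Naaa and the membrane proteins Cd68 and Slc29a3. V-ATPase subunits and accessory proteins had mostly positive fold changes. Of 18, 15 were higher in DPAn-6, 6 of them at an unadjusted p of 0.05 (background 5.51% higher), with a median log2 fold change of 0.091. Atp6v1c1, a subunit of the V1 sector, had the smallest p, ranging from 7.43 to 7.81 log2 CPM in CTRL with a median of 7.70 and reaching 7.92, 7.84, 7.95, 7.83 and 7.92 in DPAn-6. All DPAn-6 mice lay above all CTRL mice, which also held for Atp6ap1 and for 1.73% of all genes. Atp6v1c1 differed by 0.17 ± 0.066 on the log2 scale with an adjusted edgeR p of 0.228.

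Of the other hydrolases 11 of 16 were lower, 4 at an unadjusted p of 0.05 (25%, background 9.02% lower), and the median log2 fold change was -0.11. Naaa, an amidase of N-acylethanolamines, ranged from 5.15 to 5.55 log2 CPM in CTRL with a median of 5.40 and was 5.22, 5.19, 4.97, 5.16 and 5.16 in DPAn-6. It differed by -0.25 ± 0.073 on the log2 scale, with an adjusted edgeR p of 0.102. Of 18 other membrane proteins and transporters, 10 were lower, 2 of them at an unadjusted p of 0.05 (11.1%), and 1 was higher by that rule (5.56%), both close to the shares over all tested genes. Cd68, a macrophage glycoprotein of the lysosomal membrane, ranged from 5.83 to 6.60 log2 CPM in CTRL with a median of 6.21 and was 5.84, 5.94, 5.05, 5.37 and 5.78 in DPAn-6. It had a log2 fold change of -0.64 ± 0.16 with an adjusted edgeR p of 0.0575. Of 13 genes for enzyme delivery, 7 were lower and 0 had an unadjusted p below 0.05 (background 14.5% in either direction). The smallest p was that of the mannose phosphate receptor M6pr with a log2 fold change of 0.093 ± 0.060. Of 14 transcription factors and mTORC1 docking genes, 5 were lower. At an unadjusted p of 0.05, 1 was higher (7.14%), close to the 5.51% higher over all tested genes. This gene, the GTPase Rraga, had a log2 fold change of 0.19 ± 0.071 and an adjusted edgeR p of 0.221.

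**Figure D4:**
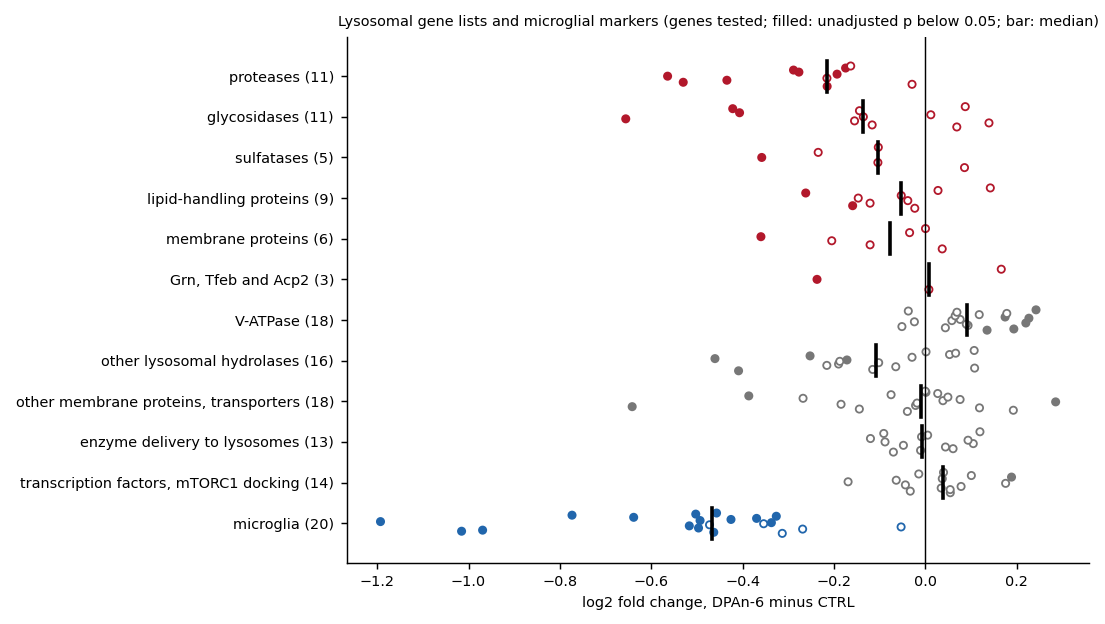
Log2 fold change (x axis, DPAn-6 minus CTRL) of each tested gene in 6 families of the 45 lysosomal genes (red), 5 lists of other lysosomal genes (grey) and 20 microglial markers (blue), with filled points for an unadjusted edgeR p below 0.05 and a bar at each median. The medians run from -0.47 for microglial markers and -0.22 for proteases to 0.091 for the V-ATPase.

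Markers of microglia were lower as well. All 20 had a negative fold change in DPAn-6 (51.3% of all tested genes did), and 6 had an adjusted edgeR p below 0.05 (1.14% called lower). The median log2 fold change of the 20 was -0.47. Their summed level was 1178 to 1740 CPM in CTRL and 777 to 1135 CPM in DPAn-6, and none was at 0 in any library. Of 12 markers of plaque-associated microglia, 11 were lower and 5 passed the adjusted threshold, with summed levels of 505 to 798 and 300 to 443 CPM. All 6 tested markers of border macrophages were lower and 3 passed, at 34.0 to 51.0 and 23.4 to 32.9 CPM. Among astrocyte markers 9 of 10 were lower (7384 to 11334 CPM in CTRL and 6603 to 8165 in DPAn-6), and among endothelial markers 5 of 8 (317 to 357 and 299 to 346 CPM). Among oligodendrocyte markers 8 of 10 were higher (5381 to 7119 and 6338 to 7180 CPM), and among neuronal markers 9 of 10 (13248 to 17233 and 14094 to 14518 CPM). None of these 4 lists had a marker past the adjusted threshold. At an unadjusted p of 0.05, 4 astrocyte markers were lower and 0 higher, and 5 oligodendrocyte markers were higher and 0 lower. The direction of the oligodendrocyte markers differed with age. In the 14-month mice alone 0 of 10 were lower (median log2 fold change 0.37). In the 12-month mice alone 7 of 10 were lower (median -0.088). Of neuronal markers 1 was lower and 2 were higher, and of endothelial markers 1 was lower and 1 higher. The shares over all tested genes were 9.02% lower and 5.51% higher. All 6 tested markers of choroid plexus were lower, 0 of them past the adjusted threshold, and their level was uneven between mice, with sums of 15.2 to 1710 CPM in CTRL and 9.02 to 25.3 CPM in DPAn-6. Only Otx2 of that list was at 0 in some library. The part of astrocytes, neurons, endothelium and border macrophages in the lysosomal differences was not tested.

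With the mean of the 20 microglial markers as a covariate in edgeR, the median of the 45 genes was 0.029, and 29 of 45 were above 0, where 50.2% of all tested genes were. None was lower at an unadjusted p of 0.05 and 1, Ctss, was higher, with backgrounds of 3.1% and 2.36%. The log2 fold change was -0.11 for Ctsh, -0.18 for Man2b1, 0.070 for Ctsd and 0.066 for Laptm5, whereas Ppt1 was at -0.21 and Galns at -0.44, neither past the adjusted threshold. The marker mean itself did not overlap between the groups, at 5.25 to 5.81 log2 CPM in CTRL and 4.73 to 5.21 in DPAn-6. Treatment and marker level therefore cannot be told apart in this fit. With the choroid plexus or the oligodendrocyte marker mean as covariate instead, 0 of 45 genes passed the adjusted threshold. Ctsh was at -0.59 and -0.75 and Man2b1 at -0.44 and -0.56 on the log2 scale. The share of all tested genes called in these fits is not given, so this count is not a result about the lysosomal genes.

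The relation to microglial markers was therefore examined as well within the 7 CTRL mice, where treatment played no part. Of the 45 genes, 34 had a positive Pearson r with the mean log2 CPM of the 20 markers (75.6%), where 48.6% of all tested genes did. An exact permutation p below 0.05 was reached by 4, all positive, where 1.2% of all tested genes had such a positive relation. None passed after Benjamini-Hochberg adjustment over the 15688 genes. The count depended on CTRL replicate 3, and without it 15 of the 45 genes had such a p, 13 of them positive and 2 negative (Plbd2 and Idua), beside 2.49% and 2.86% of all tested genes. Ctsh had r = 0.907 (exact permutation p = 0.00496) and Spearman's rho = 0.893 (exact permutation p = 0.0123), with r = 0.786 after the 2 mice farthest from the median, CTRL replicates 1 and 5, were left out. Ctss and Laptm5 had r = 0.901 and r = 0.896 with rho = 0.893 and 0.857, and r fell to 0.684 and 0.497 without these 2 mice. Gm2a had r = 0.784 and rho = 0.679, and r = 0.743 without them. The further positive genes gained by leaving out CTRL replicate 3 were less steady. With replicates 1 and 5 left out and replicate 3 kept, their r lay between -0.054 (Ctsb) and 0.53 (Ctsc). Man2b1, Ppt1 and Psap had r = 0.248, r = 0.265 and r = -0.02, with exact permutation p of 0.589, 0.567 and 0.960. With all 12 mice and each group centred on its mean, 14 genes had a permutation p below 0.05, all positive, beside 3.05% of all tested genes. The smallest were those of Ctss (r = 0.919), Laptm5 (r = 0.908) and Ctsh (r = 0.843). After adjustment over all 15688 genes 0 positive relations (0%) passed.

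**Figure D5:**
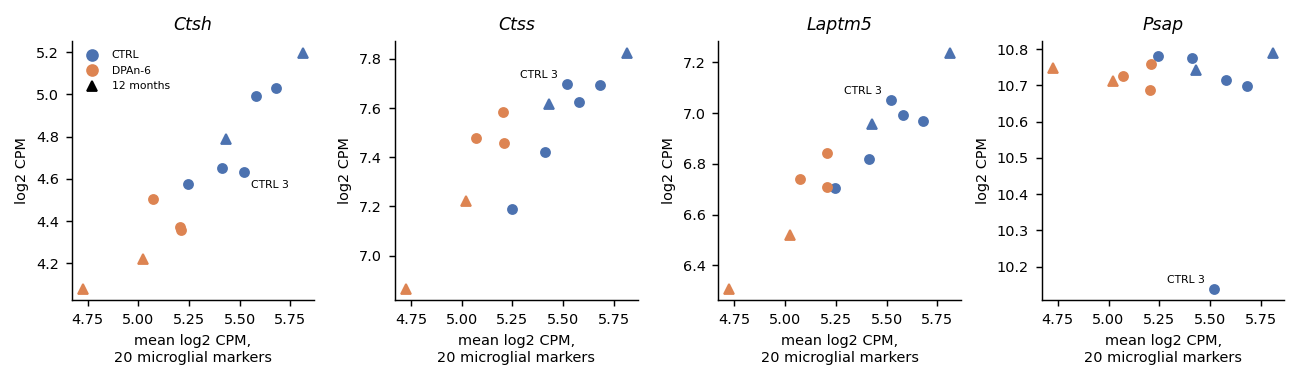
Log2 CPM of Ctsh, Ctss, Laptm5 and Psap (y axes) against the mean log2 CPM of 20 microglial markers (x axis) in 7 CTRL (blue) and 5 DPAn-6 (orange) mice, with triangles for 12-month mice. Ctsh, Ctss and Laptm5 rise with the marker mean among CTRL mice (r of 0.907, 0.901 and 0.896), while Psap does not (r of -0.02) and its CTRL replicate 3 lies far below the other mice.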

How the data were processed

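RNA-Seq counts per gene were taken as deposited. Per the submitters' processing notes, the authors aligned poly(A)-selected reads with STAR 2.5.3a to GRCm38 (mm10) and counted reads per gene, with no normalization. The strand setting of the counts is not stated. The study transformed counts with limma-voom before a two-tailed test. Genes were named and measured for exon length with GENCODE M21 (50339 of 50563 identifiers matched). Here edgeR 4.0.16, run in R 4.3.3, was applied to the deposited counts (TMM, filterByExpr, glmQLFit and glmQLFTest, no covariate, Benjamini-Hochberg over 15688 genes), and single genes by an exact permutation test over 792 splits of the mice. Log2 CPM used a pseudocount of 0.5 and library totals without TMM. Permutation p of group differences in single genes used these values and were not adjusted. The procedure was tested on simulated data. Alternatives used DESeq2 1.42.0, limma 3.58.1, other normalizations and filters, age, marker and replicate terms, and each library left out. Values in every mouse were given for genes with adjusted p below 0.05 and, in each family, for the gene with the smallest p and the most abundant per kb. Of each list of other lysosomal genes, the gene with the smallest p was named, except 1 that is not reported here, and any further gene was named after its values were seen. The 45 genes and all lists were chosen with earlier results of these data known. Replicate numbers were not used to pair the mice, since same-numbered CTRL and DPAn-6 mice did not consistently deviate together. Tables and figures were made with Python 3.11.15, pandas 2.3.3, numpy 2.4.6 and matplotlib 3.10.9.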

Additional observations from a re-analysis of the deposited data

Results flagged for a closer look

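In 13 of 90 groups (45 genes in CTRL and in DPAn-6), 1 library lay far from the others of its group. The value given is the gap to the nearest library divided by the range of the group, on log2 CPM, and chance marks about 1 group in 20. In 11 of the 13 the library was CTRL replicate 3. It was the highest for Ids (0.91), Arsb (0.752), Tpp1 (0.72) and Lamp2 (0.581). It was the lowest for Psap (0.86), Smpd1 (0.801), Ctsf (0.798), Naglu (0.742), Gaa (0.648), Manba (0.586) and Neu1 (0.581). The 2 others were Acp2, lowest in CTRL replicate 2 (0.728), and Glb1, lowest in DPAn-6 replicate 4 (0.739). In the library of CTRL replicate 3 the deviation from the other CTRL mice had an SD over genes of 0.655, against 0.258 to 0.385 in the other libraries, and it moved with exon length as described above. Why that library differs was not tested.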

How the results depend on the processing

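The results were recomputed under 26 other settings. A share in parentheses is that of all tested genes lower in DPAn-6 by the same rule and setting. Where no share is printed here, the count alone does not show whether the lysosomal genes differed from all tested genes. The number of the 45 genes with adjusted p below 0.05 was 2 (1.14%). It was 7 with DESeq2 (3.16%), 0 in 14-month mice (0.0376%) and 15 in 12-month mice (2.77%). It was 1 without TMM, 1 with age as covariate, and 0 with the microglial, the choroid plexus or the oligodendrocyte marker mean as covariate. It ran from 0 to 9 with 1 library left out, 9 being without CTRL replicate 3 (3.98%). The number at an unadjusted p below 0.05 was 16 (9.02%). It was 3 in 14-month mice (5.36%) and 1, higher, with the microglial covariate, where 2.36% of all tested genes were higher. It was 9 to 20 with 1 library left out, 9 being without DPAn-6 replicate 3 and 20 without CTRL replicate 3 (12.5%). Of the other lysosomal genes 0 were called, and 3 with DESeq2 (3.16%), 1 with no filter on low counts and 6 in 12-month mice (2.77%). With 1 library left out 0 to 4 were called, 4 being without CTRL replicate 3 (3.98%) and 2 without CTRL replicate 5. The median log2 fold change of -0.14 was -0.053 in 14-month mice and 0.029 with the microglial covariate. The 4 relations to the microglial mean became 14 with all 12 mice centred, and 3 to 15 with 1 CTRL library left out, 15 (13 positive and 2 negative) being without replicate 3. With the microglial covariate the log2 fold changes of Ctss (0.28), Hexa (0.26), Ctsz (0.21), Ctsb (0.18), Npc2 (0.17), Lipa (0.14), Asah1 (0.14), Sgsh (0.12), Ctsd (0.070), Laptm5 (0.066), Grn (0.053), Galc (0.033), Ctsa (0.032), Lgmn (0.032), Glb1 (0.031), Gm2a (0.029), Lamp1 (0.028), Lamp2 (0.026) and Npc1 (0.014) turned positive and that of Idua (-0.098) negative. In the fit with the microglial covariate only Ctss, of all 45 genes, had an unadjusted edgeR p below 0.05. Gaa turned negative with the choroid plexus covariate (-0.011) and in 12-month mice (-0.12), and ran from -0.010 (without CTRL replicate 3) to 0.12 with 1 library left out. Psap turned negative with the oligodendrocyte covariate (-0.0065) and in 12-month mice (-0.041), and ran from -0.040 (without CTRL replicate 3) to 0.051 with 1 library left out. The cause was not tested.

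With the replicate number as a block in replicates 1 to 5 of both groups, 0 of the 45 genes were called, and 1 in the same libraries with no block. The share of all tested genes called is not given for either fit, so these counts are not a result about the lysosomal genes. The correlation of same-numbered mice was 0.091, 0.016, -0.12, 0.22 and -0.067, and 1 of 5 numbers matched best with itself. These values gave no ground to treat the numbers as pairs, but cannot show whether the mice were matched in handling. The fits on 12-month mice, the choroid plexus and oligodendrocyte covariates, and replicates 1 to 5 with no block were chosen after seeing the data. With 2 mice in each group, the 12-month fit rests on few degrees of freedom.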
